A study of Rattus norvegicus with 8 samples.

Results

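The response of the rat hippocampus to 3 days of low oxygen was measured by comparing the 2 arrays of the day 3 group with the 2 arrays of the normoxic control group, 4 of the 8 arrays of the series, chosen by their titles. All animals were male Sprague Dawley rats with no genetic change named in the labels, and no age is given. The day 3 group spent 3 days in a decompression chamber under hypobaric hypoxia, that is, reduced air pressure equivalent to an altitude of 25000 ft with an effective oxygen content of 8%, and the control group was kept in normoxia. The 2 other groups of 2 arrays were exposed in the same way for 1 day (day 1) or are titled day 7, with 5 days in their exposure field, and serve here only to show where day 3 differs. The labels leave unsaid if a group's 2 arrays hold RNA of different animals. The p-values therefore measure array-to-array spread alone, possibly of technical origin. Whole tissue was used, so fewer cells of a type and less RNA per cell cannot be told apart.

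Cells meet a lack of oxygen mainly through the hypoxia-inducible factors (HIF). In normal air, prolyl hydroxylases mark the HIF alpha subunits for destruction through the von Hippel-Lindau protein, and when oxygen falls the subunits persist, pair with ARNT and bind short DNA elements with the core ACGTG or GCGTG. The genes they activate serve glucose uptake, glycolysis, vessel growth, iron supply and the turnover of mitochondria. The hippocampus, which serves memory and spatial learning, is known as a brain region that is sensitive to lack of oxygen.

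Levels are log2 signals of a gene's probe minus the 75th percentile of its array. Changes are differences of the group means of these levels, day 3 minus normoxia, with their SE (n = 2 arrays a group). Adjusted p-values come from limma with Benjamini-Hochberg adjustment over all 21296 genes tested, and a gene is called higher or lower at an adjusted p under 0.05. Where both arrays of a group failed Agilent's test for signal well above background, the fold is given as a bound, written "at least". It is set against the lowest signal called above background on those arrays, or against the reading itself where that was higher. For Epo, Msln and Espn the bound is therefore the measured fold. Since some failing readings lay above that lowest signal, the bound holds only against it, and the true fold may be smaller. The hippocampal label was checked against genes of the CA1 field and the dentate gyrus. Fibcd1, of CA1, stood at 4.59 and 4.63 in normoxia and 4.81 and 4.77 on day 3, and C1ql2, a dentate granule cell gene, at 1.35 in normoxia and 1.66 on day 3 on each array. Prox1, another dentate gene, stood near background, at -6.25 and -6.14 in normoxia and -5.82 and -7.60 on day 3. The difference of Fibcd1 between the groups (0.18) turned to -0.03 under quantile normalization, and its call was lost without normoxia replicate 1 or either day 3 array (adjusted p = 0.0502 to 0.0886, limma).

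The day 3 arrays were dimmer, and the change depended on the level. In normoxia 85.6% and 84.5% of spots were well above background, against 75.7% on each day 3 array, and the 75th percentile of the processed signal over probes was 2684 and 2321 against 1710 and 1566. A bright spike-in control probe (E1A_r60_a97) read 13.42 and 13.18 in normoxia and 12.98 and 12.77 on day 3 on the log2 scale. Normoxia lay in row 1 of the slide and day 3 in row 2, so slide row and exposure cannot be told apart. With genes split into 10 groups of equal size by mean level, the median change was -0.63 in the dimmest group and 0.18 in the brightest. For this reason each gene list is set beside all genes (median change -0.05) and, where its reading changes, beside cyclic loess, a normalization that removes such a trend. Of the genes tested, 1889 were above background on both normoxia arrays and below it on both day 3 arrays, and 17 were the reverse.

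**Figure D1:**
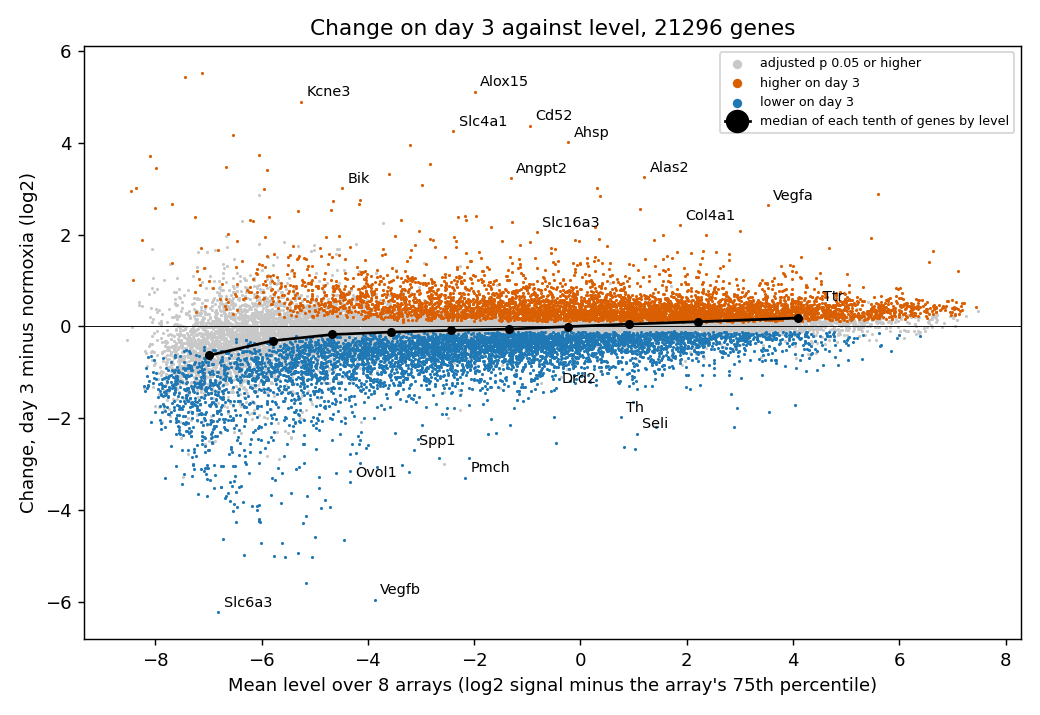
Change on day 3 (vertical axis, log2) against the mean level over 8 arrays (horizontal axis, log2 signal minus the array's 75th percentile) for 21296 genes, coloured by call, with the median of each of 10 equal groups by level as a black line. The line runs from -0.63 in the dimmest group to 0.18 in the brightest, and falls of dim genes are measured differences rather than bounds.

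At adjusted p under 0.05, 50.3% of all genes were called (10719 of 21296), 24.2% higher and 26.2% lower. Changes of at least 2-fold were fewer, with 1.52% of genes higher (324) and 5.56% lower (1185). The direction of the balance depends on the scaling and the filter. Median centring gave 7574 higher and 3786 lower, and normexp background correction 7606 and 3596. The median change of all genes was then 0.10 and 0.13. A probe was kept if above background on both arrays of any group, which held for 21131 genes in normoxia and 18229 on day 3. Genes dim on day 3 could thus enter through normoxia, which can weight the counts towards falls. With probes above background on all 8 arrays 5396 genes were higher and 4862 lower, and with no filter 6052 and 5300. The 2-fold counts were not repeated with these filters. A count of called members in a list is therefore read against a background in which 50.3% of genes were called. Between the 2 arrays of normoxia the median difference over genes was 0.075 log2, and between those of day 3 it was 0.063.

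The sequences below show what the HIF target genes offer as binding cores. The window runs from 250 bases before the RefSeq start site to 5 bases into the transcript, on rat build GRCr8, 5′ to 3′ on the gene's strand, with each ACGTG or GCGTG, or its reverse complement (CACGT or CACGC), in capitals. The search took both strands of 300 bases (250 before to 50 after the start), so the palindrome CACGTG counts as 2 matches. Shown are the HIF target genes that rose and hold 4 or more matches, and Bhlhe40, which holds 4 and was not called. Car12 also holds 4 and was not called, and it is not shown because its matches lie beyond the printed bases.
Ankrd37 (chr16:53001257-53001511, + strand): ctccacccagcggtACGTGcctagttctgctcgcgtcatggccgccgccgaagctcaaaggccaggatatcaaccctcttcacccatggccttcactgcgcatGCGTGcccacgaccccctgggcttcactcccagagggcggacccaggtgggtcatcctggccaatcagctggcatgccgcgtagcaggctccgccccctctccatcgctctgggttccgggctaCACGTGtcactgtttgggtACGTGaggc
Plod2 (chr8:101964068-101964322, + strand): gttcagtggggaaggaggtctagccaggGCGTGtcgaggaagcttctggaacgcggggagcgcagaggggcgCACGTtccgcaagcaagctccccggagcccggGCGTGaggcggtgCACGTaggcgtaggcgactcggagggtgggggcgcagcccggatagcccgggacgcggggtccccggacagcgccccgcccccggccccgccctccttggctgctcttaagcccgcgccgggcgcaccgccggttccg
P4ha2 (chr10:38743644-38743898, + strand): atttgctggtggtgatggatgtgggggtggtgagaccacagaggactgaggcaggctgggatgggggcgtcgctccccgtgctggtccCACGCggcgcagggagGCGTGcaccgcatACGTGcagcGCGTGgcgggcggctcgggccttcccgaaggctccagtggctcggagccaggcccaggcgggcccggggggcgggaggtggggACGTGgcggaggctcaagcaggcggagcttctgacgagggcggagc
Bnip3 (chr1:203154958-203155212, - strand): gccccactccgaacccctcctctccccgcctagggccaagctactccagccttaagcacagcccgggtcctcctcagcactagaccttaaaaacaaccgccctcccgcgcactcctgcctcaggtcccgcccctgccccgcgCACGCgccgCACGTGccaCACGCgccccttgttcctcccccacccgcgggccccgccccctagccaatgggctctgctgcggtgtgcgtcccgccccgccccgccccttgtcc
Bhlhe40 (chr4:143174200-143174454, + strand): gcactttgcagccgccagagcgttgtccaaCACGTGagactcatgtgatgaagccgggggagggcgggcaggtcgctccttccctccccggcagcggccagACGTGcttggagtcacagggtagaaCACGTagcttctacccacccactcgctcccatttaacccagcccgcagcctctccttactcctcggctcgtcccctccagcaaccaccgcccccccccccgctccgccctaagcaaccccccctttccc
Of the HIF target genes called higher, 17 of 21 had a promoter entry, and 12 of them (70.6%) held at least 1 match. Of those not called higher, 16 of 20 had an entry and 12 held a match. Among all 27457 promoters in the table, 42.9% held one, with ACGTG in 19.7% and GCGTG in 31.1%. A match describes letters only, and the shares with and without a rise lie close together. Vegfa and Adm rose without a match in this window.

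Most HIF target genes outside glycolysis were higher on day 3. Of 41 tested, 21 were higher and 7 lower (24.2% and 26.2% of all genes), with a median change of 0.42. Under cyclic loess 25 were higher and 5 lower, with a median of 0.40. Adm, which encodes the vasodilator peptide adrenomedullin, stood at -1.69 and -1.72 in normoxia and 0.0049 and -0.05 on day 3, and rose 3.20-fold (1.68 ± 0.04, adjusted p = 4.01e-05). Ankrd37, an ankyrin-repeat gene whose promoter is printed above, stood at -0.94 on each normoxia array and at 0.46 and 0.43 on day 3, a rise of 1.39 ± 0.03 (adjusted p = 4.05e-05). In both genes the day 3 arrays lay far above the normoxia arrays, with no overlap. Plod2, a collagen lysyl hydroxylase, stood at -2.05 and -2.01 in normoxia and -0.72 and -0.78 on day 3 (1.28 ± 0.04, adjusted p = 6.42e-05), and Nos3, the endothelial nitric oxide synthase, rose by 1.29 ± 0.04. Bnip3, which starts mitophagy, rose by 0.48 ± 0.05 from 4.21 and 4.30 to 4.74 and 4.72, and its relative Bnip3l by 0.51. The prolyl hydroxylase subunits P4ha1 and P4ha2, which act on collagen, rose by 0.66 and 0.52.

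Several targets moved the other way or did not pass. Nos2, the inducible nitric oxide synthase, fell by 1.23, Pfkfb4, which controls glycolytic flux, by 0.73 (0.07 with normexp correction), Jmjd6 by 0.65 and Higd1a by 0.54. Epo, which encodes erythropoietin, read -6.56 and -6.39 in normoxia and, at background, -7.03 and -6.99 on day 3, at least 1.45-fold lower (adjusted p = 0.0352). That call was lost when any 1 of the 4 arrays was left out (adjusted p = 0.0725 to 0.15, limma) and under quantile normalization (adjusted p = 0.677), and with normexp correction the change was 0.33. Tfrc, the transferrin receptor, rose by 0.90 on its brightest probe, while its other probe gave -0.21.

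The oxygen sensing genes moved in both directions, with 30.8% higher and 23.1% lower, near the shares of all genes (24.2% and 26.2%). Of 13 tested, 4 were higher and 3 lower, with a median of 0.13 (6 and 2 with normexp correction). Egln1, the main HIF prolyl hydroxylase, rose by 0.47 ± 0.05 (-1.79 and -1.74 in normoxia, -1.33 and -1.27 on day 3), and Egln2 fell by 0.36 ± 0.05. Egln3, often used as a marker of HIF activity, stood at -1.07 and -1.15 against -0.96 and -0.99, a difference of 0.13 ± 0.04 that did not pass (adjusted p = 0.0519). It passed under median centring (0.28), quantile normalization (0.19), cyclic loess (0.17) and removal of the GC trend (0.23). At 0.13 it also passed with the replicate block, with an intensity trend in the fit and with probes above background on all 8 arrays. Hif1a, the oxygen-regulated subunit, rose by 0.26 ± 0.07, a call lost when any 1 of the 4 arrays was left out (adjusted p = 0.0526 to 0.113, limma), and Hif3a, a subunit with inhibitory forms, did not pass (-0.28 ± 0.41, adjusted p = 0.604). Hif1an, the asparaginyl hydroxylase that limits HIF activity, sank to background on day 3, at least 2.29-fold lower (0.05 in log2 with normexp correction). Rbx1 and Cul2, parts of the ligase that removes HIF, changed by -0.32 and 0.25.

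Genes of glucose, lactate and pyruvate handling showed no common direction. Slc16a3, which exports lactate, stood at -2.30 and -2.29 in normoxia and at -0.24 and -0.26 on day 3, and rose 4.13-fold (2.05 ± 0.04, adjusted p = 3.02e-05). Slc2a1, the glucose transporter of endothelium and glia, stood at 2.53 and 2.62 against 3.51 and 3.52 and rose 1.91-fold (0.94 ± 0.04, adjusted p = 0.000157). Of 16 genes of glucose, lactate and pyruvate handling, 3 were higher and 6 lower, with a median of -0.02, with 7 higher and 3 lower under median centring and 5 and 7 under cyclic loess. The lower ones included genes of the pyruvate dehydrogenase step: Pdhb, a subunit of the complex, fell by 1.03 ± 0.04 from 2.02 and 1.96 to 0.94 and 0.99, and Pdp1, the phosphatase that activates it, by 0.73 ± 0.06. Pdk1, the kinase that switches the complex off and a classical HIF target, fell by 0.28 ± 0.04 (-2.08 and -2.15 against -2.42 and -2.37, adjusted p = 0.00331). The fall of Pdk1 did not pass under median centring (-0.13). Pdp1 also stands on the list of thalamus markers, whose summed level fell (below), and its part in the change of Pdp1 was not tested.

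Glycolytic enzymes were higher in 10 of 17 cases and lower in 3, with a median of 0.28. Pgk1, a kinase that yields ATP, rose by 0.44 ± 0.04 to 6.44 and 6.43, Gpi rose by 0.42 and Pfkp by 0.40, and under quantile normalization Pgk1 and Pfkp lost their calls (0.13 and 0.20). Aldoa, an aldolase, went the other way, from 3.01 and 3.00 to 2.39 and 2.37 (fell by 0.63 ± 0.03, adjusted p = 0.000222), as did Ldhb with a fall of 0.26 (not called under median centring, -0.11). These enzymes are among the brightest genes, and under cyclic loess 4 were higher and 6 lower with a median of 0.06, against 11 and 1 under median centring.

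Genes of growing vessels were among the strongest rises. Of 27 angiogenic ligands and receptors, 12 were higher and 4 lower, with a median of 0.17 (0.44 under cyclic loess). Among the ligands, Vegfa, the main growth factor of vessels, stood at 1.61 and 1.52 in normoxia and at 4.14 and 4.26 on day 3, and rose 6.23-fold (2.64 ± 0.07, adjusted p = 5.21e-05). Its other 3 probes gave 2.01 to 2.33, and the probe used lies on rn4 chromosome 9 from 10535933 to 10535992. Angpt2, which loosens vessels by competing at the Tie2 receptor, stood at -3.81 and -3.82 against -0.55 and -0.61, a 9.41-fold rise (3.23 ± 0.05, adjusted p = 1.66e-05). Apln, a ligand of tip cells, rose by 0.89 and Vegfc by 0.57, and Pgf fell by 0.33.

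Vegfb, a relative of Vegfa linked to lipid uptake by endothelium, was the most marked exception among the ligands. It stood at -2.38 and -2.45 in normoxia and, at background, at -8.32 and -8.42 on day 3, at least 29.9-fold lower (adjusted p = 1.16e-05). A single probe measured it, on rn4 chromosome 1 from 209657830 to 209657889. The day 1 arrays read -2.12 and -2.05 and those of the day 7 group -2.61 and -2.63, close to normoxia, so the loss of signal was seen on the 2 day 3 arrays alone among the 8.

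Among the receptors, 2 of those for VEGF rose. Kdr (VEGF receptor 2) stood at 1.58 and 1.64 against 3.66 and 3.70 and rose 4.21-fold (2.07 ± 0.04), and Flt1 (VEGF receptor 1) rose by 1.89 ± 0.05 from -4.13 and -4.15 to -2.31 and -2.19. Tie1 fell by 1.25 ± 0.14 and Tek, which encodes Tie2, by 0.95 ± 0.29 (adjusted p = 0.0424), a call lost when any 1 of the 4 arrays was left out (adjusted p = 0.061 to 0.164, limma) and under quantile, median and cyclic loess scaling (-0.67 to -0.81) and normexp (-0.08). In the Notch pathway, which selects tip cells, Dll4 rose by 1.97 ± 0.05 (other probe -0.16) and Notch4 by 1.24, and Jag1 rose by 0.80. Flt4, the third VEGF receptor, and the co-receptors Nrp1 and Nrp2 did not pass (-0.08, -0.03 and 0.11), though Nrp2 passed under quantile normalization (0.61) and normexp (0.46), and was lower with the authors' deposited values (-0.38).

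The vessel basement membrane followed. Of 18 genes of the basement membrane and tip cells, 10 were higher and 5 lower, with a median of 0.34 (10 and 2 under cyclic loess). Col4a1, a collagen IV chain, stood at 0.10 and -0.01 against 2.25 and 2.26 and rose 4.62-fold (2.21 ± 0.06), with 0.21 on its other probe. Fn1, fibronectin, rose by 1.99 ± 0.05 (other probe 0.20), Nid2 by 1.73 ± 0.05 and the protease Adamts1 by 1.46 ± 0.03. Endothelial and barrier markers were higher in 11 of 24 cases and lower in 5. Pecam1, an adhesion molecule of endothelium, stood at -0.11 and -0.08 against 1.78 and 1.79 (1.88 ± 0.05), Vwf rose by 1.59 and Esam by 1.05. The tight junction gene Cldn5 rose by 0.55, whereas the amino acid transporter Slc38a5 fell by 1.60, the efflux pump Abcg2 by 0.75 and Plvap, a marker of leaky vessels, by 0.67. Cdh5, a defining endothelial cadherin, did not pass (0.09). In the mixed list of pericyte and smooth muscle markers, 4 of 14 were higher and 8 lower (median -0.39). Tagln, of smooth muscle, fell by 1.68 ± 0.05 and Anpep by 1.12, while Kcnj8, Higd1b and Pdgfrb, of pericytes, rose by 0.99, 0.79 and 0.78. Markers of pericytes and of smooth muscle were not counted apart, so these genes do not show how either cell type changed.

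**Figure D2:**
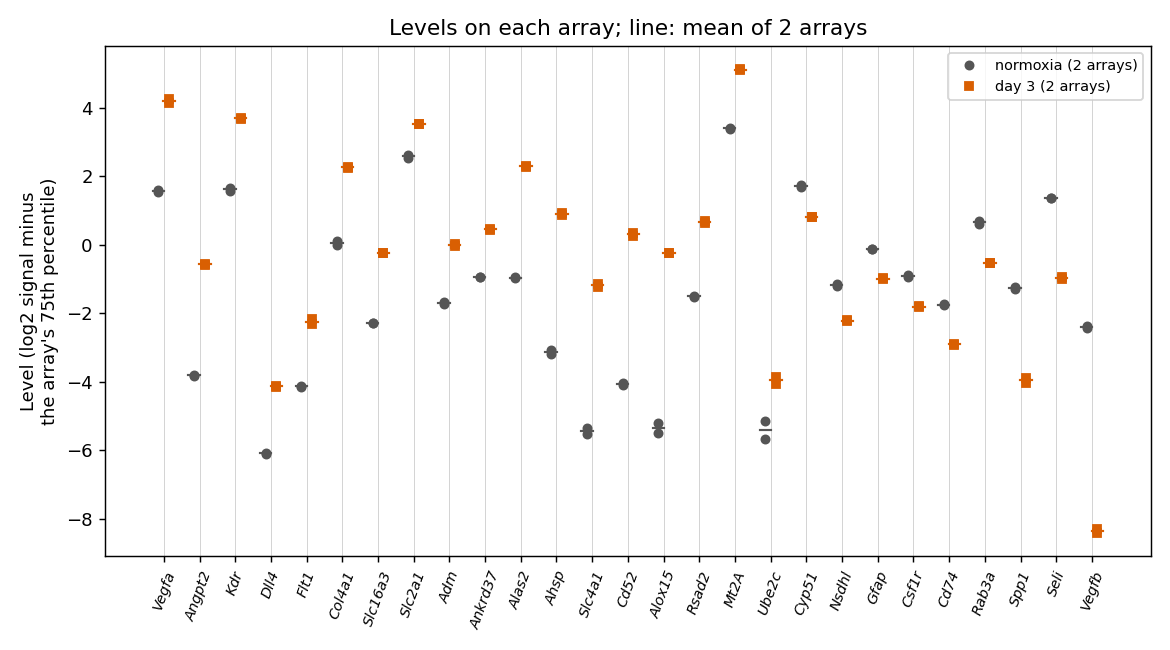
Level on each of the 2 normoxia arrays (circles) and 2 day 3 arrays (squares), as log2 signal minus the array's 75th percentile, for 27 genes of the text, with the mean of each group as a line. The arrays of a group lie close together and the groups do not overlap; Vegfa stands at 1.61 and 1.52 against 4.14 and 4.26, and Vegfb at -2.38 and -2.45 against -8.32 and -8.42.

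Red blood cell genes formed the list with the largest median change, 1.65, with 12 of 13 higher and none lower. Ahsp, the chaperone of alpha globin, stood at -3.07 and -3.19 in normoxia and at 0.92 and 0.86 on day 3, and rose 16.2-fold (4.02 ± 0.05, adjusted p = 1.32e-05). Slc4a1, the anion exchanger of the red cell membrane, stood at -5.35 and -5.53 against -1.14 and -1.24 (4.25 ± 0.08). Alas2, the first enzyme of haem synthesis in red cell precursors, rose by 3.25 ± 0.05 and Hemgn by 3.94 ± 0.09, and Rhag was at least 7.89-fold higher. The globins rose less, with Hbb-b1 at 1.65, Hbb at 1.41 and Hba-a2 at 1.22 (other probe 2.42), and the linear signals of the list summed to 164 and 180 times the array's 75th percentile in normoxia and to 471 and 445 on day 3. Globin genes are near-identical copies whose probes can share signal, so their single values are uncertain. Whether the tissue was cleared of blood is not stated in the labels. Hp, which encodes haptoglobin and binds free haemoglobin, rose by 1.47 ± 0.04, and the mitochondrial iron importer Slc25a37 by 0.96. Across 23 genes of iron and haem, 9 were higher and 5 lower (16 and 3 under median centring), and Alas1, the general form of the enzyme, fell by 0.38.

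Genes of other blood cells moved in both directions, as did all genes (24.2% higher and 26.2% lower). Of 18 neutrophil and platelet genes, 5 were higher and 4 lower, with a median of -0.11 that turned positive under cyclic loess (0.02), and with normexp 9 were higher and 2 lower. S100a8 and S100a9, the most abundant neutrophil products, did not pass (-0.12 and 0.07). Pf4, a platelet chemokine, stood at -3.33 and -3.30 against -0.92 on each day 3 array and rose 5.28-fold (2.40 ± 0.06), and Itga2b rose by 0.78. Ppbp, another platelet chemokine, did not pass (-0.07). Of 16 lymphocyte genes, 2 were higher and 2 lower, and with normexp correction 12 and 1. Cd52, a surface glycoprotein of lymphocytes and other leukocytes, stood at -4.03 and -4.11 against 0.35 and 0.25 and rose 20.7-fold (4.37 ± 0.05, adjusted p = 1.32e-05), and Zap70, a T cell receptor kinase, rose by 2.28 ± 0.05. Nkg7, of cytotoxic cells, fell by 1.13. The defining T cell genes Cd3e, Cd3d, Cd3g and Cd4 did not pass (0.64, 0.13, -0.04 and -0.58), but this depended on the scaling. Under quantile normalization Cd3e, Cd3d and Cd3g were called higher (0.99, 0.23 and 0.28), as they were under cyclic loess (0.80, 0.25 and 0.17), and with normexp so were Cd3e, Cd3g and Cd4 (0.65, 0.36 and 0.24). Cd3e was also called with the replicate block (adjusted p = 0.0194, limma).

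Interferon-stimulated genes were more often higher than lower, with a median close to that of all genes. Of 31, 14 were higher and 4 lower, with a median of 0.07. Rsad2, an antiviral enzyme, had a mean of -1.51 in normoxia, with 0.68 and 0.64 on day 3, and rose 4.52-fold (2.17 ± 0.06), Gbp2 rose by 0.89 and Mx2 by 0.65. The related Mx1 fell by 0.93 ± 0.04, as did the immunoproteasome subunit Psmb8 (0.81), the peptide transporter Tap1 (0.61) and the RNA sensor Ddx58 (0.65). Under cyclic loess Tap1 and Ddx58 lost their calls (-0.28 and -0.41, adjusted p = 0.104 and 0.0637, limma), and with normexp Tap1 stood at -0.08. No member of the 8 MHC class II genes was higher and 5 were lower, with a median of -0.66 (-0.43 with genes below background at their bound). Cd74, the invariant chain, fell by 1.15 ± 0.08 from -1.75 and -1.78 to -2.93 and -2.90.

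Of 25 microglia markers, 2 were higher and 16 lower, with a median of -0.35, and 3 were higher and 11 lower under median centring (median -0.21). Tmem119 stood at -0.73 on each normoxia array and at -1.64 and -1.66 on day 3 (fell by 0.92 ± 0.03, adjusted p = 0.000103), Csf1r, the receptor on which microglia depend, fell by 0.89 ± 0.04 and Cd33 by 0.64. Aif1, which encodes the marker Iba1, stood at 2.14 and 2.10 against 2.14 and 2.05 and did not pass (-0.03 ± 0.09, other probe 0.32). The summed level of the markers was 53.5 and 54.2 in normoxia and 47.3 on each day 3 array.

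Inflammatory genes moved in both directions. Of the cytokine and NF-kB genes 18.2% were higher and 31.8% lower, not far from all genes (24.2% and 26.2%). Of 22 cytokine and NF-kB genes, 4 were higher and 7 lower (9 and 7 with normexp correction). Il6 was at least 1.27-fold lower (0.30 in log2 with normexp correction, and -0.01 and not called with the authors' deposited values), Il6st, the shared receptor subunit of its family, fell by 0.56 and Tlr4 by 0.85, while Il1b rose by 0.57 ± 0.04 and the endothelial selectin Sele by 1.52 ± 0.19. Of 27 chemokines and receptors, 9 were higher and 5 lower (13 and 1 with normexp correction, 12 and 4 under median centring). Ccl5 rose by 0.94 and Ccl6 by 0.97, whereas Ccl2 fell by 0.88 (0.05 with normexp correction) and Cxcl2, a neutrophil attractant, was at least 2.74-fold lower, a change and call lost with normexp (-0.03 in log2, adjusted p = 0.785, limma).

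The largest rise of a gene above background in both groups was that of Alox15, which encodes a lipoxygenase that oxygenates polyunsaturated fatty acids. It stood at -5.20 and -5.50 in normoxia and at -0.23 and -0.24 on day 3 and rose 34.6-fold (5.11 ± 0.10, adjusted p = 3.02e-05). Its single probe, on rn4 chromosome 10 from 57186202 to 57186261, is printed to show what was measured.
Alox15 probe: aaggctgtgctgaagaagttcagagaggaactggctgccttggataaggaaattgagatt
The rest of the 21 lipoxygenase and prostaglandin genes changed less, with 4 higher and 4 lower in all (6 and 3 under median centring). Pla2g2a, a secreted phospholipase that frees fatty acids, rose by 1.31 ± 0.29, a call lost without either normoxia array or day 3 replicate 2 (adjusted p = 0.0598 to 0.0727, limma), and Ptgds, a prostaglandin D synthase of leptomeninges and oligodendrocytes, fell by 0.95 ± 0.05.

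Myelin and precursor markers were mostly lower. Of 24 myelin and oligodendrocyte markers, 4 were higher and 15 lower (median -0.31), and of 11 markers of oligodendrocyte precursors 2 were higher and 8 lower (median -0.72). Myrf, the factor that drives myelin genes, fell by 1.15 ± 0.06 from -2.60 and -2.69 to -3.80 and -3.78, and Cnp, a phosphodiesterase of myelin, by 0.93. Mbp and Mog, which encode abundant myelin proteins, rose by 0.44 and 0.50, and the call of Mbp was lost without normoxia replicate 1 or either day 3 array (adjusted p = 0.104 to 0.153, limma) and under quantile and cyclic loess normalization (0.08 and 0.14). Among the precursor genes, Neu4 fell by 1.45 ± 0.04, Olig2 by 0.72 (other probe -1.94) and the matrix gene Bcan by 0.72, while Pdgfra, the receptor that defines these cells, rose by 0.24. Of 20 astrocyte markers, 6 were higher and 8 lower (3 and 11 under cyclic loess, 10 and 6 under median centring). Gfap, the intermediate filament used as the mark of reactive astrocytes, stood at -0.12 and -0.14 against -0.99 and -1.01 and fell by 0.87 ± 0.05 (adjusted p = 0.000259). Aldh1l1 fell by 0.78, the water channel Aqp4 by 0.52 and Mlc1 by 0.45, whereas glutamine synthetase (Glul) rose by 0.43.

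The balance of neuronal genes depended on the scaling. Of 29 neuronal and presynaptic genes, 2 were higher and 17 lower (median -0.18), with 2 and 21 under cyclic loess (median -0.23) but 8 and 10 under median centring (median -0.03). Rab3a, a vesicle GTPase, stood at 0.62 and 0.68 against -0.54 and -0.53 and fell 2.27-fold (a change of -1.18 ± 0.04), Slc17a6, a vesicular glutamate transporter, fell by 1.03 and Thy1 by 0.48. Cplx2, a complexin that clamps vesicle fusion, rose by 0.82 ± 0.05 while its relative Cplx1 fell by 0.54. Slc17a6 is also a thalamus marker, and the hippocampal transporter Slc17a7 fell by 0.59. Glutamate receptor subunits went both ways, with 7 of 22 higher and 9 lower. The AMPA receptor subunits split, with Gria1 down by 0.58 ± 0.03, Gria3 up by 0.85 ± 0.07 and Gria2 up by 0.39, and the presynaptic receptors Grm4 and Grm8 fell by 0.87 and 0.79.

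Of 29 GABA receptor and interneuron genes, 2 were higher and 13 lower (median -0.16), and 7 and 9 under median centring (median -0.02). Calb2, the calretinin gene, fell by 1.64 ± 0.05 from 1.83 and 1.86 to 0.21 and 0.19, and Tac1, which encodes substance P, by 0.89. Calb2 is also a marker of thalamus. Among 65 potassium channel genes, 21 were higher and 27 lower (24 and 19 under median centring, median -0.20 and -0.05). Kcne3, an accessory subunit, stood at -7.81 and -8.67, not above background in normoxia, and at -3.40 and -3.28 on day 3, and was at least 26.1-fold higher (adjusted p = 0.000251). Kcnh2 fell by 0.89. Sodium and calcium channels were higher in 10 and lower in 12 of 33 cases (14 and 9 with normexp correction), with Scn3b up by 0.84, Cacnb4 down by 0.69 and Cacna2d3 down by 0.80.

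Immediate early genes, which report recent neuronal activity, showed no common direction, with 11 of 31 higher and 10 lower (14 and 7 under median centring). Dusp1, a phosphatase also induced by glucocorticoids, stood at -1.84 and -1.74 against -3.63 and -3.51 and fell 3.44-fold (a change of -1.78 ± 0.07). Gadd45b fell by 0.73, Fos by 0.37 ± 0.06 and Arc by 0.50, while Sik1 rose by 1.18 (other probe -0.05), Dusp6 by 0.60, Egr1 by 0.31 (other probe -0.31) and the growth factor Bdnf by 0.27 ± 0.04 from -1.81 and -1.78 to -1.56 and -1.49. Among 22 genes of dentate gyrus, CA fields and neurogenesis, 7 were higher and 6 lower, with a median of -0.03 (9 and 3, median 0.12, under median centring). Pou3f1 rose by 0.70 and C1ql2 and Spink8, of granule and pyramidal cells, by 0.31 and 0.32, while Draxin fell by 1.67. Dcx, the mark of newborn neurons, did not pass (-0.13, adjusted p = 0.0956), but was called lower with normexp (-0.25).

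Genes of sterol synthesis were mostly lower. Of 27 genes of cholesterol synthesis and uptake, 1 was higher and 18 lower, with a median of -0.56, and 5 were higher and 17 lower under median centring (median -0.41). Cyp51, a sterol demethylase, stood at 1.69 and 1.73 against 0.82 and 0.79 and fell by 0.90 ± 0.04 (adjusted p = 0.000114), Nsdhl fell by 1.03 ± 0.04, Fdps by 0.88 and Msmo1 by 0.73. Insig1, a sterol sensor and itself a target of the pathway's main activator, fell by 0.70, and Ebp was the gene that rose (0.29), a call lost without either normoxia array or day 3 replicate 2 (adjusted p = 0.0581 to 0.0656, limma). Fatty acid genes were higher in 4 and lower in 8 of 19 cases (2 and 10 under cyclic loess). Thrsp, a regulator of fat synthesis, fell by 1.19 ± 0.06, the desaturases Scd1 and Fads1 by 0.79 and 0.73 (a brighter probe, named Scd for the same desaturase, did not pass at -0.02, but was called lower under quantile and cyclic loess normalization, at -0.30 and -0.25) and Acss2 by 0.50, while Acsl3 rose by 0.43.

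Protein synthesis and mitochondrial genes show how far the scaling matters. Of 78 cytosolic ribosomal proteins, 55 were higher and 1 lower, with a median of 0.31 and no change above 0.61. Rpl27a stood at 4.14 and 4.15 against 4.55 and 4.54 (0.40 ± 0.03), Rps9 rose by 0.52, Rps15a by 0.58 and Rpl11 by 0.52. Under cyclic loess 19 were higher and 7 lower with a median of 0.06, and many of these genes have near-identical copies. Complex I subunits were higher in 15 and lower in 12 of 36 cases (4 and 20 under cyclic loess, 18 and 5 under median centring), and subunits of complexes II to V in 13 and 8 of 42 (3 and 19 under cyclic loess, 27 and 5 under median centring). Single subunits went both ways. Ndufs8, an iron-sulphur subunit, fell by 0.81 ± 0.06 and Ndufb3 and Ndufa5 rose by 0.56 and 0.49. Cox6a2, the muscle form of a cytochrome oxidase subunit, stood at -1.57 and -1.53 against -3.47 and -3.45 and fell 3.76-fold (a change of -1.91 ± 0.05), and the catalytic subunit of ATP synthase, Atp5b (Atp5f1b), fell by 0.81 ± 0.04. Atp5c1 (Atp5f1c) fell by 0.51 and Atp5i (Atp5me) rose by 0.44. Mitochondrial ribosomal proteins were higher in 18 and lower in 22 of 68 cases (34 and 11 under median centring), with Mrps9 down by 0.67, Mrpl3 by 0.79 and Mrps10 by 0.88 and Mrpl10 up by 0.55 (other probe -0.50). Proteasome subunits split as well, 14 higher and 12 lower of 37 (6 and 14 under cyclic loess, 20 and 7 under median centring), led by Psmd14, a deubiquitinase of the lid, which fell by 0.85, while Psmd9 rose by 0.42 (other probe -0.16), Psma5 by 0.43 and Psma6 by 0.44.

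Among stress pathways other than hypoxia, the unfolded protein and heat shock lists had the same median as all genes (-0.05). In the first 35.7% were higher and 28.6% lower, and in the second 19.2% and 30.8%, against 24.2% and 26.2% of all genes. Of 28 genes of the unfolded protein and integrated stress responses, 10 were higher and 8 lower, with a median of -0.05 (0.10 under median centring). Ddit3, which encodes CHOP, rose by 0.43 ± 0.04, Ppp1r15a by 0.41 and Pdia4 by 0.45, and Atf3 fell by 0.54 and the amino acid sensor Sesn2 by 1.18. Heat shock genes were higher in 5 and lower in 8 of 26 cases (10 and 6 under median centring), with Hspb6 down by 1.34, Hspa4l by 0.55 and Cryab by 0.30 and the factor Hsf2 up by 0.65 (other probe -0.39). Of 33 antioxidant genes, 6 were higher and 15 lower, a balance that median centring turned to 12 and 8. Gpx2, a glutathione peroxidase, was at least 4.76-fold lower, Gstp1, a glutathione transferase, fell by 0.61 ± 0.03, Gstm1 by 0.50 and Keap1, which restrains the antioxidant factor Nrf2, by 0.66. Hmox1, which degrades haem, rose by 0.46.

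Mt2A, Mt1a and Tgm2 led the glucocorticoid-responsive genes, of which 14 of 23 were higher and 2 lower, with a median of 0.20 (10 and 3, median 0.11, under cyclic loess). Mt2A, a metallothionein, stood at 3.41 and 3.39 against 5.12 and 5.09 and rose 3.27-fold (1.71 ± 0.04, adjusted p = 4.01e-05), Tgm2, a transglutaminase, rose by 1.45 and Mt1a (Mt1) by 1.09. The reporters of the receptor rose less: Fkbp5 rose by 0.23 ± 0.05 (adjusted p = 0.0166) and Sgk1 by 0.27 ± 0.05 (adjusted p = 0.0105), and the call of Fkbp5 was lost under cyclic loess and without normoxia replicate 2 or day 3 replicate 1 (adjusted p = 0.0751 and 0.0693, limma). With normexp Fkbp5 and Sgk1 lost their calls (0.18 each). Dusp1, named above, fell. The zinc importer Slc39a8 rose by 1.16 ± 0.06 and the metal sensor Mtf1 fell by 0.67. Circadian clock genes were higher in 2 and lower in 8 of 17 cases (median -0.24), and in 3 and 4 under median centring (median -0.09): Dbp fell by 0.53, Per3 by 0.62 (other probes up to 0.98) and Nr1d1 by 0.75, while Npas2 rose by 0.39 and Clock by 0.62 (other probe -0.73). The hour at which tissue was taken is not given in the labels. Carbonic anhydrases were higher in 4 and lower in 1 of 14 cases (7 and 2 with normexp correction), with the inactive family member Car8 down (-1.35 and -1.38 against -2.65 and -2.47) and Car7, Car6 and Car11 up by 0.45, 0.36 and 0.47.

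Genes of cell division were higher more often than lower. Of 36 cell cycle and replication genes, 19 were higher and 8 lower, with a median of 0.25 (20 and 5, median 0.35, under cyclic loess). Mki67, a mark of dividing cells, stood at -3.14 and -3.12 against -1.96 and -2.01 and rose 2.21-fold (1.14 ± 0.05, adjusted p = 0.00017), Cdk1 rose by 0.80, Mcm4 by 0.69 and Ccna2 by 0.93. Ccnd1, the cyclin of early G1 phase, fell by 0.88 and the helicase subunit Mcm6 by 1.22. Division itself was not measured, and the cells behind these levels cannot be read from whole tissue. Genes of p53 and apoptosis were higher in 12 and lower in 9 of 34 cases, with a median of -0.01 (14 and 7, median 0.17, under cyclic loess). Bik, a killer protein of the BH3 family, stood at -6.70 and -6.29 against -3.75 and -3.21 and rose by 3.01 ± 0.22, Ccng1 rose by 1.38 and Bbc3, which encodes PUMA, by 0.64, whereas the p53 target Phlda3 fell by 1.21. Autophagy genes were higher in 11 and lower in 9 of 32 cases (8 and 12 under cyclic loess, 15 and 5 under median centring), with Becn1 up by 0.51, Atg9a up by 0.40 (other probe -0.44) and Lamp2 down by 0.46.

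**Figure D3:**
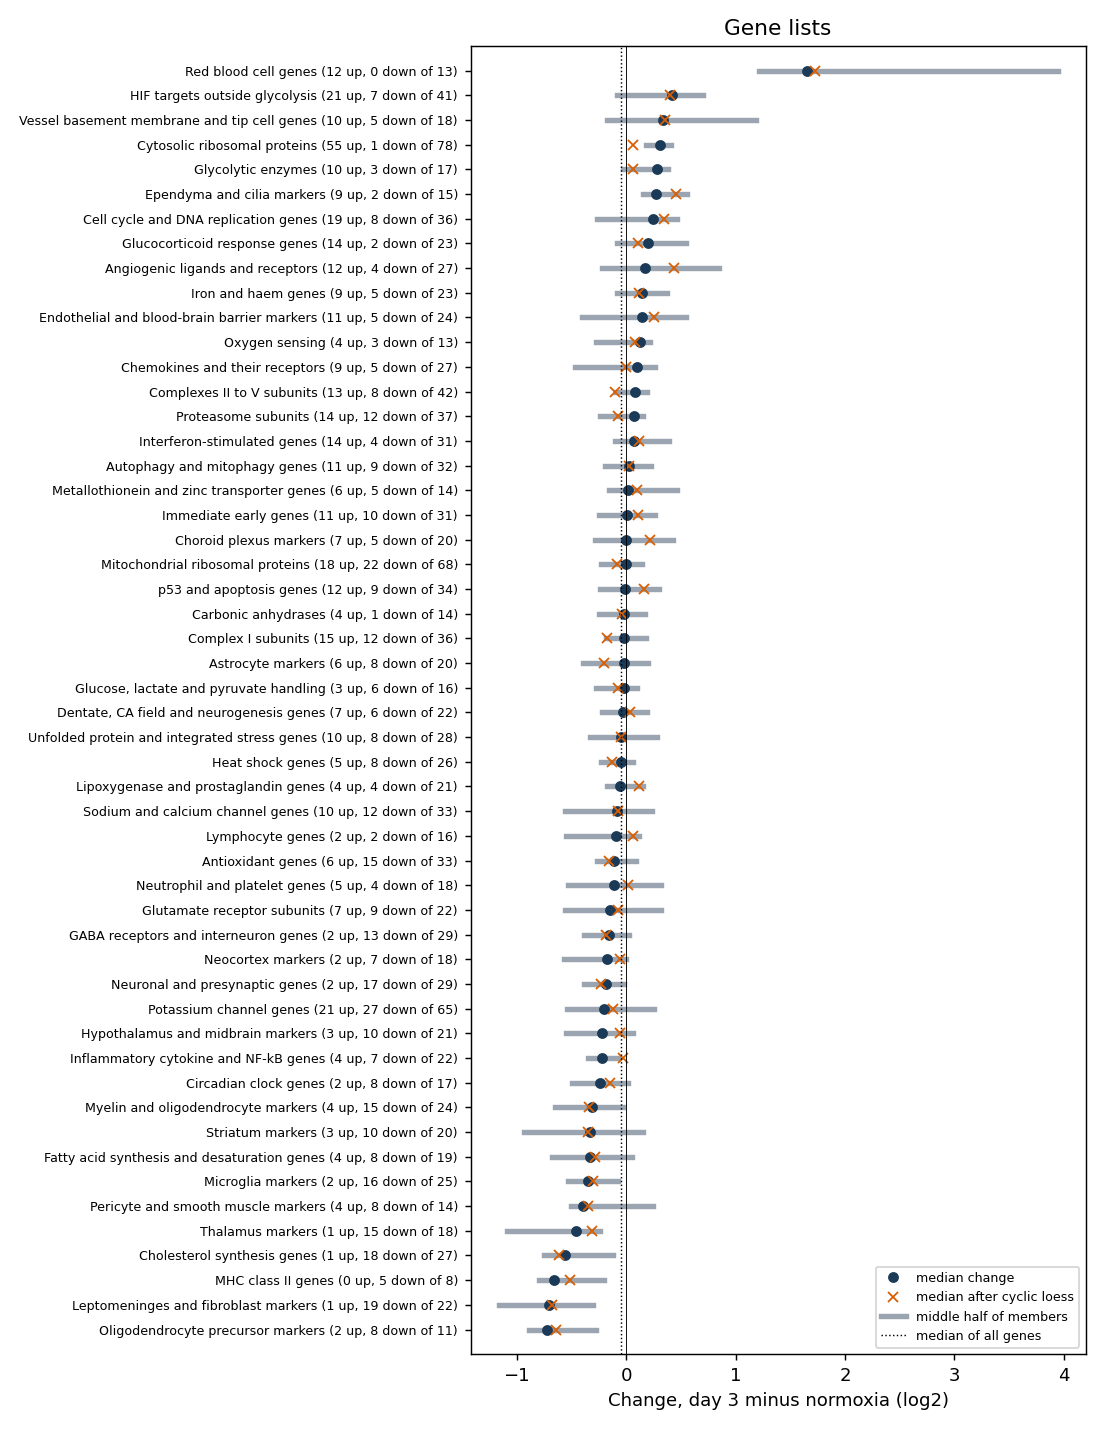
Median change of each of 52 gene lists (dots, log2, day 3 minus normoxia), the range between the quartiles of its members (bars) and the median under cyclic loess (crosses), with the median of all genes as a dotted line and the counts of called members beside each name. Red blood cell genes lie at 1.65 under the main scaling, and the ribosomal list moves from 0.31 to 0.06 under cyclic loess.

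Markers of tissues other than the hippocampus also differed between the groups. Leptomeningeal and fibroblast markers were lower in 19 of 22 cases and higher in 1 (median -0.70), and their signals summed to 74.3 and 76.7 in normoxia and 47.4 and 47.3 on day 3. Col1a2, a fibrillar collagen, fell by 1.30 ± 0.04 from 2.06 and 2.04 to 0.76 and 0.74, Dcn by 1.16, Slc22a6 by 1.57 and Col3a1 by 1.08, and Lum was at least 5.55-fold lower. Thalamus markers were lower in 15 of 18 cases and higher in 1, with sums of 24.0 and 23.7 against 11.9 and 11.7. Prkcd fell by 1.36 ± 0.03 and Tcf7l2 by 1.14, and Gbx2, a thalamic transcription factor, was at least 5.33-fold lower. Markers of hypothalamus and midbrain were higher in 3 and lower in 10 of 21 cases (6 and 7 with normexp correction), with sums of 14.9 and 16.2 against 9.20 and 9.33. Ptgds, Slc17a6 and Calb2, described above, are also members of these lists, and Tac1 is a striatum marker. The part of tissue other than the hippocampus in any of the changes described here was not tested.

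Within the hypothalamic and midbrain list, the falls included dopamine neuron and melanin-concentrating hormone genes. Slc6a3, the dopamine transporter, stood at -1.73 and -1.96 in normoxia and, not above background, at -8.51 and -7.63 on day 3, a fall of at least 44.3-fold (adjusted p = 0.000433; other probe -3.48 in log2). Th, which makes the precursor of dopamine, fell by 1.98 ± 0.23, Slc18a2, the vesicular monoamine transporter, by 2.64 ± 0.21, and Foxa2, a midbrain transcription factor, was at least 5.53-fold lower, although with the authors' deposited values its change was -2.01 in log2 and not called (adjusted p = 0.249, limma). Pmch fell by 3.30 ± 0.04 from 0.30 and 0.28 to -2.97 and -3.05. Pomc, Oxt and Agrp, of other hypothalamic neurons, did not pass (-0.06, -0.22 and 0.00, adjusted p = 0.346, 0.179 and 0.986), with Agrp called higher under cyclic loess (0.23), and Avp rose by 0.49 and Gnrh1 by 0.98. Ependymal and cilia genes went the other way, higher in 9 and lower in 2 of 15 cases, with Foxj1, which drives motile cilia, up by 0.87 ± 0.04, Ccdc113 by 0.79, Ccdc153 (Drc12) by 0.61 and Dynlrb2 by 0.60. Choroid plexus markers were higher in 7 and lower in 5 of 20 cases, with a median of 0.00 (9 and 3, median 0.22, under cyclic loess) and sums of 124 and 134 against 179 and 167. Ttr, which carries thyroid hormone and fills this tissue, rose by 0.44 ± 0.07 (6.83 and 6.96 against 7.39 and 7.28, adjusted p = 0.00507), a call lost under quantile normalization (0.06), and Calml4 rose by 1.12, while the prolactin receptor gene Prlr was at least 1.87-fold lower (0.22 in log2 with normexp correction, and 1.52 and not called with the authors' deposited values). Neocortex markers were higher in 2 and lower in 7 of 18 cases (median -0.17, and 0.04 with normexp correction), with Ctgf (Ccn2) down by 0.74 and Lamp5 down by 0.66. Striatum markers were higher in 3 and lower in 10 of 20 cases (7 and 5 with normexp correction), led by Drd2, which fell by 1.35 ± 0.04, and Adora2a, which rose 2.15-fold.

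**Figure D4:**
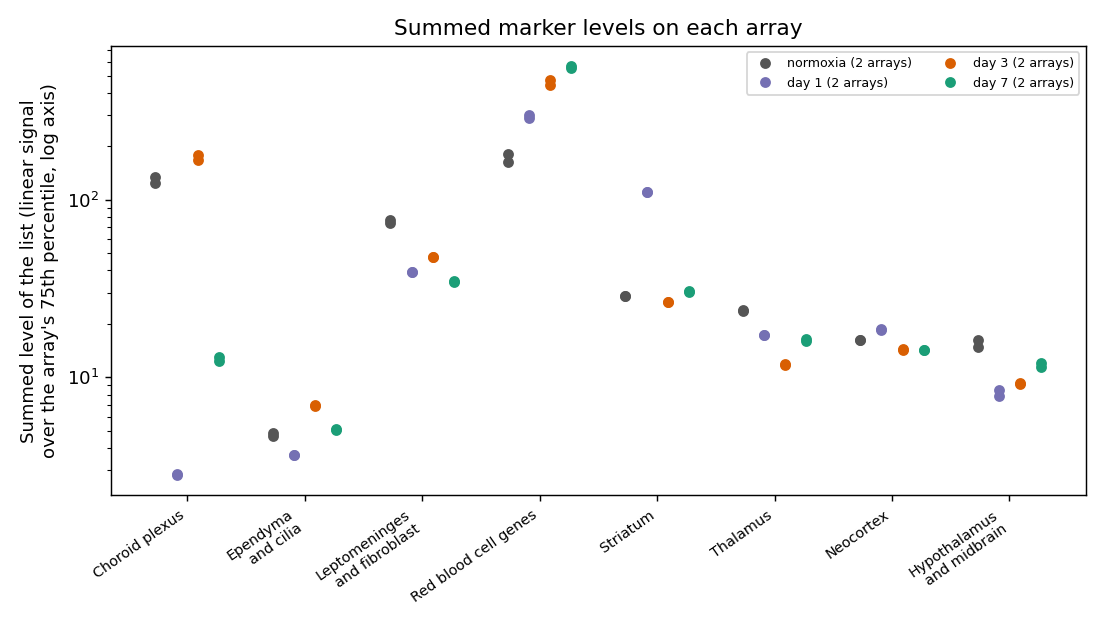
Summed level of 8 marker lists on each of the 8 arrays (vertical log axis, linear signal over the array's 75th percentile). Leptomeningeal markers stand at 74.3 and 76.7 in normoxia and 47.4 and 47.3 on day 3, and choroid plexus markers, at 124 and 134 and at 179 and 167 in these groups, are far lower on day 1 and day 7.

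The 15 largest rises among called genes with a symbol include, besides those above, genes of sensory receptors and defence peptides at the edge of detection. Espn, an actin-bundling protein of hair cells, was at least 10.6-fold higher (other probe -0.42), the beta-defensin Defb17 at least 9.21-fold, and the olfactory receptors Olr271 (Or5p78) and Olr1139 (Or7g26) at least 6.70-fold and 3.70-fold. Abca4, a retinoid transporter, was measured in both groups, at -4.91 and -5.01 against -1.89 and -1.88, and rose 8.43-fold (3.08 ± 0.16). Vom2r30, a pheromone receptor gene, was at least 25.7-fold higher, but its day 3 arrays differed widely, at -1.98 and -5.37, its other probe gave -0.73, and the call was lost without either normoxia array or day 3 replicate 1 (adjusted p = 0.0562 to 0.092, limma).

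The 15 largest falls include, besides Slc6a3, Vegfb, Foxa2, Pmch and Gbx2, several epithelial and mesothelial genes. Cdh1, the epithelial cadherin, stood at -3.37 and -3.41 against -6.04 and -6.09 and fell 6.38-fold (a change of -2.67 ± 0.05), Ovol1, an epithelial transcription factor, fell by 3.39 ± 0.15, and Msln, mesothelin, was at least 8.32-fold lower. Spp1, which encodes osteopontin, stood at -1.23 and -1.31 against -3.89 and -4.04 and fell 6.50-fold (a change of -2.70 ± 0.07). Arhgap36 fell by 2.75 ± 0.11. The beta-defensin Defb1 was at least 6.52-fold lower, the crystallin Cryba4 4.39-fold, the methyltransferase Inmt 4.71-fold and the olfactory receptor Olr1507 (Or1r1) 3.09-fold. With normexp Olr1507 lost its call (-0.19 in log2, adjusted p = 0.0611, limma). The receptor gene Vom2r58 was at least 5.66-fold lower, with normoxia arrays that differed widely (-6.29 and -3.34), and lost its call without either day 3 array (adjusted p = 0.0848 and 0.101, limma) and with normexp (-0.80 in log2).

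To see where day 3 stands among the exposed groups, its level was set against the mean of day 1 and day 7 in the same fit. By this test 28.6% of genes were called (6083 of 21296), 13.8% higher and 14.7% lower on day 3, and 0.934% were higher and 1.34% lower by at least 2-fold. Without day 3 replicate 1 or 2 the count was 3311 or 3265, and without day 1 replicate 1 or 2 it was 3804 or 3769. The choroid plexus list stood apart, with 20 of 20 markers higher and a median difference of 3.43, and the 6 genes named by rule as highest were all members. The list was chosen with earlier results of these data known, so neither count is independent support. Cltrn (Tmem27 on the array) was at least 93.1-fold higher than that mean, Glycam1 at least 71.5-fold and Tmem72 at least 20.8-fold. Ttr, with levels of 0.35 and 0.40 after 1 day and of 3.32 and 3.21 in the day 7 group, was 45.7-fold higher on day 3 (5.51 ± 0.06), Sostdc1, an inhibitor of BMP and Wnt signals, 46.3-fold and Kcnj13, a potassium channel, 37.8-fold. Against normoxia the same genes changed by -0.22 (Sostdc1), 0.44 (Ttr) and 0.71 (Tmem27), where the calls of Sostdc1 and Tmem27 were lost without 1 of the arrays (adjusted p = 0.0501 to 0.0746, limma), and the list summed to 2.82 and 2.85 after 1 day and to 13.1 and 12.3 in the day 7 group. Glycam1 rose by 1.26 against normoxia, and Kcnj13 and Tmem72 did not pass (0.06 and 0.65), though Tmem72 did under cyclic loess (0.96) and normexp (0.62).

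In the other direction, striatum markers were lower in 18 of 20 cases with none higher (median -1.52), and their signals summed to 26.5 on each day 3 array. The sums were 111 on each day 1 array but 30.5 and 30.1 on day 7 and 28.7 and 28.6 in normoxia, so day 1 was the group that stood apart. Drd1 and Drd2, the dopamine receptors, differed by -2.62 ± 0.34 and -2.40 ± 0.03 and Rasgrp2, a signalling gene of striatal neurons and platelets, by -2.49 ± 0.09. Drd1 was not well above background on day 3 or day 7 and has no fold. On day 7, Drd2 stood at -1.85 and -1.84, above the -2.02 and -1.98 of day 3. Vegfb and Seli were low on day 3 against both other exposed groups and normoxia. Vegfb was at least 31.1-fold below the mean of day 1 and day 7. Seli (Selenoi), which encodes an enzyme of phosphatidylethanolamine synthesis, had levels of 1.36 on each normoxia array, of 1.79 and 1.73 after 1 day, of 2.01 and 2.15 in the day 7 group and of -0.98 on average in the day 3 group. It was 7.45-fold below that mean (-2.90 ± 0.05) and 5.05-fold below normoxia. Its probe lies on rn4 chromosome 6 from 26058655 to 26058714. Obp3, an odorant-binding protein, was at least 3.03-fold lower.

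**Figure D5:**
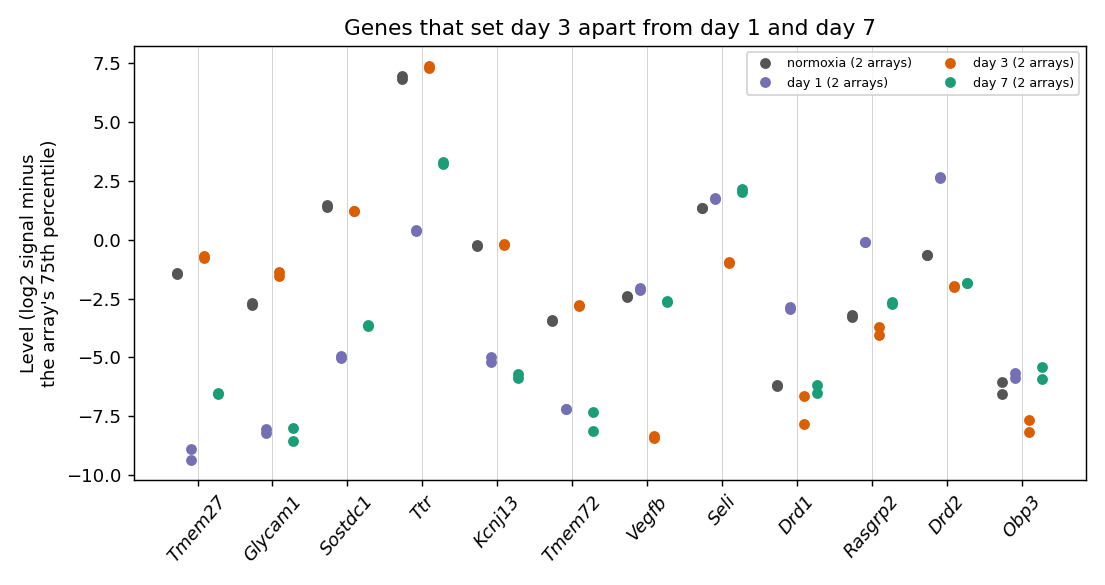
Level on each of the 8 arrays (log2 signal minus the array's 75th percentile) of the 12 genes named by rule for day 3 against the mean of day 1 and day 7. Drd2 stands at 2.65 and 2.62 on day 1, above each of the other arrays. Ttr stands at 7.39 and 7.28 on day 3, near normoxia and above day 1 and day 7, and Seli at a mean of -0.98 on day 3, below each of the other arrays.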

How the data were processed

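RNA of rat hippocampus was labelled with Cy3 and hybridised to 8 one-colour Agilent arrays on a single slide. The deposited scanner intensity values were made by Agilent Feature Extraction 11.5.1.1, per the file headers, with background subtraction and detrending within each array and probe positions on build rn4. The log2 values of the authors' deposited table, whose scale and centring are not stated, lay within 0.05 of the values computed here for 96.7% to 97.4% of probes, with column medians from -3.53 to -3.23, and served as an alternative. Here, control spots were left out, spots of a probe were averaged on the log2 scale and each array's 75th percentile was subtracted. Of 30367 probes, 24678 passed Agilent's flag for signal above background on both arrays of some group, and the brightest kept probe stood for each of 21296 genes. The test was that of limma 3.58.1 (R 4.3.3), with a mean per group over all 8 arrays and 4 residual degrees of freedom, two-sided, with Benjamini-Hochberg adjustment. The script was tested on simulated data with independent normal noise. These lacked the trend with level and the dimmer day 3 arrays, so the test does not cover them. With 2 arrays a group, the number of arrays limits the precision.

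Genes were named by rule: the 15 largest rises and falls against normoxia and the 6 largest of each direction against the mean of day 1 and day 7, taken from the called genes that carry a symbol and whose groups do not overlap, the members of each list with the smallest p, and a set of genes named whatever their result. Other list members named in the text were chosen after their values were seen. Some of the genes this rule picks are not reported here. The comparison, the 52 lists and the genes were chosen with earlier results of these data known. Promoter sequences are from RefSeq on GRCr8. Replicate numbers did not pair the arrays (correlations of deviations between -0.15 and 0.05).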

Additional observations from a re-analysis of the deposited data

Results flagged for a closer look

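Day 3 differed from the mean of day 1 and day 7 in 6083 genes (limma, adjusted p under 0.05), a test of the difference itself. The 12 genes named by rule, on the log2 scale, were higher on day 3 for Tmem27 (7.08), Glycam1 (6.74), Sostdc1 (5.53), Ttr (5.51), Kcnj13 (5.24) and Tmem72 (4.66). Against normoxia these differed by -0.22 (Sostdc1) to 1.26 (Glycam1). The genes lower on day 3 were Vegfb (-6.02), Seli (-2.90), Drd1 (-2.62), Rasgrp2 (-2.49), Drd2 (-2.40) and Obp3 (-2.19). For Drd1, Rasgrp2 and Drd2, day 1 was the group that stood apart (Drd2 at 2.64, against -1.84 on day 7 and -2.00 on day 3). Where a group was not well above background, the values given are measured differences and the bounds stand in the text above.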

How the results depend on the processing

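The count of genes called against normoxia (10719) lay between 8253 and 11360 under the other scalings, filters and fits, with 8253 to 8845 when 1 array was left out, 10290 with the replicate number as a block, and 9688 without the day 1 arrays. It was 1509 with a fold of at least 2 and 7044 at an adjusted p under 0.01. Median centring and normexp correction shifted the median of all genes to 0.10 and 0.13, and the share of higher calls from 48.0% to 66.7% and 67.9%. The count against the mean of day 1 and day 7 (6083) was 484 with a fold of at least 2 and 2528 at an adjusted p under 0.01, lay between 3265 and 5532 when 1 array was left out, and was 5224 with the replicate block. The arrays share only a number, so the block pairs nothing, and the removal of the GC trend and the fits without day 1 were chosen after seeing the data. For 287 genes named in the text and 19 alternatives, 5044 values kept direction and call, and 259 lost and 34 gained a call. Of the lost calls, 156 came from the fold of at least 2 and 13 from the adjusted p under 0.01, with the main values unchanged. A change of sign was seen in 69 values (in 28 genes). The cause was not tested. The change from normoxia of these genes turned as follows. Under median centring it was 0.12 for Aif1, 0.01 for Bhlhe40, 0.11 for Cd3g, 0.02 for Dcx, 0.07 for Flt4, 0.11 for Nrp1, 0.09 for Pomc, 0.08 for Ppbp, 0.02 for S100a8 and 0.12 for Scd. With the mean of a gene's probes it was 0.15 for Aif1, -0.02 for Atg9a, -0.05 for Clock and 0.01 for Flt4. With normexp correction it was 0.05 for Ccl2, 0.36 for Cd3g, 0.24 for Cd4, 0.24 for Drd1, 0.33 for Epo, 0.05 for Hif1an, 0.32 for Hif3a, 0.30 for Il6, -0.02 for Kcnj13, 0.09 for Nrp1, 0.17 for Obp3, 0.07 for Pfkfb4, 0.01 for Pomc, 0.41 for Ppbp, 0.22 for Prlr, 0.34 for Prox1 and 0.08 for S100a8. Under quantile normalization it was 0.28 for Cd3g, -0.03 for Fibcd1, 0.01 for Flt4, 0.03 for Hif3a, 0.11 for Nrp1, 0.01 for Pomc, 0.30 for Ppbp and 0.03 for S100a8. Under cyclic loess it was 0.17 for Cd3g, -0.01 for Fibcd1, 0.00 for Flt4, 0.19 for Nrp1, -0.15 for Nrp2 and 0.03 for S100a8. In the authors' deposited values it was 0.07 for Cd3g, 0.11 for Cd4, 0.17 for Hif3a, -0.38 for Nrp2, 0.41 for Ppbp and 1.52 for Prlr. With the array trend with probe GC removed it was 0.06 for Cd3g, 0.10 for Flt4, 0.02 for Nrp1, 0.12 for Pomc, 0.01 for Ppbp and 0.07 for Scd. When 1 array was left out it ranged from -0.07 to 0.07 for Agrp, from -0.07 to 0.02 for Aif1, from -0.16 to 0.34 for Cdh5, from -0.57 to 0.01 for Hif3a, from -0.10 to 0.03 for Nrp1, from -0.18 to 0.39 for Nrp2, from -0.21 to 0.07 for Ppbp, from -1.40 to 0.38 for Prox1 and from -0.07 to 0.03 for Scd. Dim genes limit what can be said of falls, since 1889 genes had signal above background in normoxia and below it on day 3.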
